A study of Rattus norvegicus with 44 samples.

Results

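The comparison was between H4-II-E-C3 cells, a rat hepatoma line that keeps part of the hepatocyte program, after 24 h in 10 µM sodium dichromate (Na2Cr2O7) and the same cells after 24 h in 1.2 µM cadmium chloride (CdCl2). Each metal was at the highest of its 3 concentrations. The study's viability assays set these highest concentrations at the same level of cell death in both metals, so they are matched on cytotoxicity and not on molar dose. The arrays compared were 8 of the 44 of the study, 4 per metal, with 8 unexposed control arrays of the same line set beside them. All flasks came from 1 tumor line grown in the same serum-containing medium. Near confluence they were washed and then exposed in serum-free medium for the whole 24 h. The labels call the 4 arrays of a condition biological replicates. RNA was measured on Affymetrix rat arrays, and the values are log2 expression after RMA. Values of the lower concentrations of both metals are given only where named, but their arrays entered the fit and its estimate of the spread. Nickel arrays were outside the main fit but entered the filter of probe sets and the choice of 1 probe set per gene.

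The 8 arrays were chosen by a rule that moves the titles against the arrays, because the titles as deposited give other condition means than those published with the data. The 4 titles marked as repeated microarrays are moved to the end of the series order and the titles are then given to the arrays in turn. The order was selected on measured values. Under it, the means of all conditions differed from the published means of 992 probe sets by at most 7.5e-06 on the log2 scale, with a median of 2.95e-06. With each array under its own title the median difference was 0.164 and the largest was 4.32. Of the 8 arrays, 5 have another condition in their own title, namely 2 of the chromium and 3 of the cadmium arrays. With the titles as deposited, 0 probe sets differed between the metals at the threshold used here. Every result below therefore holds under the order of the rule. The 992 probe sets, which helped to choose that order, are described by their values with no test, and tests are given for the other probe sets.

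Hexavalent chromium enters cells through anion carriers and is reduced inside them, which leaves chromium bound to DNA and crosslinks that block replication forks. Cadmium enters by routes meant for zinc, iron and calcium and binds thiol groups. In liver cells it is best known for inducing metallothioneins, small proteins rich in cysteine that hold metal ions, and for unfolding proteins in the cytosol and the endoplasmic reticulum (ER). Hepatocytes in culture also lose part of their liver-specific expression under many kinds of injury.

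The cells carried hepatocyte markers. Of 9 measured, 8 were above the median of all values (5.96) on all arrays of each group, among them albumin and transthyretin. The log2 sum of these markers was 15.13 to 15.18 in chromium, 15.20 to 15.37 in cadmium and 15.39 to 15.51 in controls. None of 6 bile duct markers rose above that median on any array, and of 7 endothelial, 8 macrophage and 9 fibroblast markers, 1, 2 and 3 did on at least 1 array. The part of the hepatocyte sum in the differences below was not tested. In such bulk RNA, fewer cells with a transcript and less of it per cell cannot be told apart. The 3' minus 5' signal of Actb, a sign of RNA length, was 0.83 to 1.01 in chromium and 0.80 to 0.92 in cadmium. Arrays of a metal correlated at 0.981 to 0.995 over all probe sets tested, and arrays of different metals at 0.957 to 0.972.

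The direct comparison separated the metals in both directions, with more transcripts on the cadmium side. Outside the published 992, at a false discovery rate of at most 0.001 and a difference of at least 1.8-fold, called different from here on, 68 of 16008 probe sets were higher in chromium (0.425%) and 159 were lower (0.993%). In 223 of these 227 the 4 chromium and the 4 cadmium values did not overlap. The 227 were selected for a large difference on these same arrays, so this count describes them and is no separate evidence. At an adjusted p under 0.05 with no limit on the fold, 3050 of the 16008 were higher in chromium (19.1%) and 3664 lower (22.9%). These shares are the background for the gene groups below, and the median difference over all probe sets was -0.01. The gene lists hold 1 probe set per gene. Over 9451 genes with a known span taken in that way, published ones included, 18.6% were higher in chromium and 29.2% lower. At the limit of 1.8-fold, Anxa4 and Acbd4 lay just inside at -0.85 each, and Tnik and Pcnx4 just outside at -0.85 each.

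Differences of each metal from controls are given beside the direct comparison, and both use the same controls. Outside the published probe sets, 3537 were above controls in chromium at an adjusted p under 0.05 (22.1%) and 2813 below (17.6%), and in cadmium 3294 were above (20.6%) and 1866 below (11.7%).

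The largest difference toward chromium was in Slc39a10, a zinc importer of the plasma membrane. It read 9.38, 9.20, 9.86 and 10.08 in chromium, 6.60, 6.61, 7.01 and 7.69 in cadmium, and 10.47, 10.19, 10.22 and 10.27 in controls. It stood 2.65 ± 0.17 (SE, n = 4 per metal) above cadmium in chromium, a 6.28-fold difference, although chromium itself was 0.65 below controls. This SE and those below come from the fit, which pools the spread over controls and all concentrations of both metals. The difference came from the cadmium arrays, all of which were lower than any other array of the 3 groups. The other 11 of the 12 largest differences toward chromium lay between 1.15 and 1.52. Cdt1, Dtl, Traip, Ddias and Aunip among them act in DNA replication or in the response to damaged DNA.

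Cdt1, which loads the replicative helicase onto origins, read 8.70, 8.64, 9.05 and 8.80 in chromium against 7.64, 7.41, 7.09 and 6.95 in cadmium and 7.03, 7.11, 6.97 and 6.54 in controls. The difference between metals was 1.52 ± 0.14, with chromium 1.89 and cadmium 0.36 above controls. Dtl, the adaptor through which Cdt1 is degraded when DNA is damaged or replicated, was 1.31 ± 0.12 higher in chromium. Zfp367 was 1.29 higher, Ddias (a suppressor of apoptosis after DNA damage) 1.27, Traip (a ubiquitin ligase of stalled replisomes) 1.23, Mybl2 (a transcription factor of the cell cycle) 1.23, Shcbp1 1.20 and Taf1d 1.18. In none of these 8 genes did the arrays of the metals overlap. Ugt2b7, which glucuronidates steroids and drugs, was 1.28 higher, but its control arrays ran from 8.47 to 11.07 between replicates.

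Among the 12 were 2 genes outside the published probe sets, and both passed the test. Aunip, a partner of Aurora A kinase that also acts at broken DNA ends, read 6.18, 6.08, 6.90 and 6.35 in chromium and 5.44, 5.14, 5.04 and 5.08 in cadmium. It was 1.20 ± 0.13 higher in chromium (limma, adjusted p = 1.88e-07), and cadmium lay 0.04 below controls. Mkks, a chaperonin-like protein of the cilium base, read 7.70, 7.62, 7.88 and 7.86 in chromium, 6.50, 6.38, 6.87 and 6.70 in cadmium, and 7.13, 7.02, 7.26 and 7.30 in controls. Here all 4 chromium arrays were above and all 4 cadmium arrays below the control of their own replicate, and the metals differed by 1.15 ± 0.11 (limma, adjusted p = 2.05e-08). A brighter probe set of Mkks went the other way, at -0.50 ± 0.09 (limma, adjusted p = 8.63e-05), so the direction of this gene depends on the probe set.

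**Figure D1:**
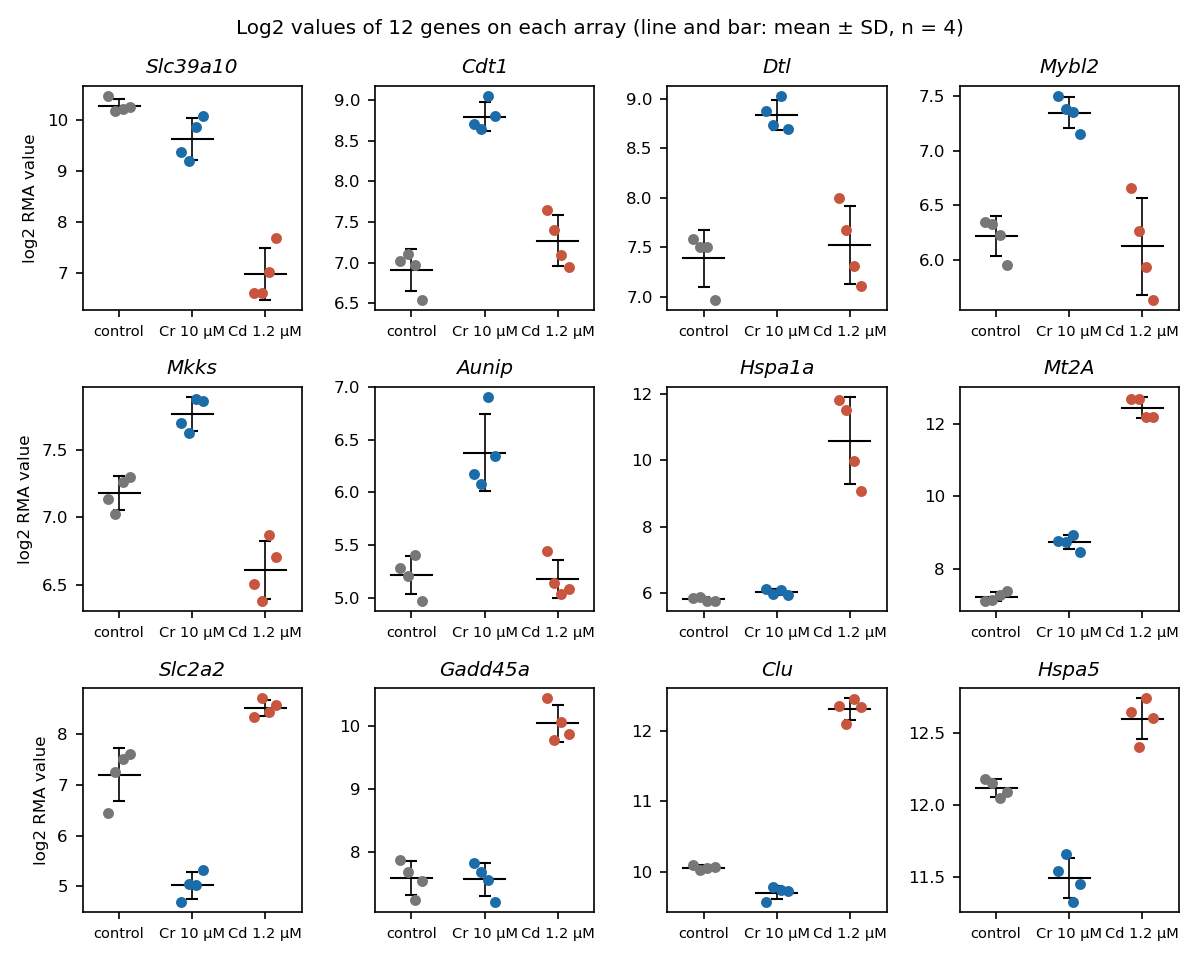
Log2 RMA values (y axes) of 12 genes on the arrays of controls (grey, 2 arrays per replicate averaged), chromium 10 µM (blue) and cadmium 1.2 µM (red); points are the 4 replicates, lines with bars the mean ± SD. Slc39a10 is lowest in cadmium, Cdt1, Dtl, Mybl2 and Aunip are highest in chromium, and Mkks, Slc2a2 and Hspa5 lie on opposite sides of the controls in the 2 metals.

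Genes of DNA replication lay mostly on the chromium side. The study published probe sets that changed at least 1.8-fold in a metal. Published members were therefore selected for change and are only described. All 12 published members of the list of origin licensing and helicase genes were higher in chromium than in cadmium, by 0.71 to 1.52. Of the 8 other members, 5 rose and 2 fell in chromium relative to cadmium at an adjusted p under 0.05 (background 19.1% and 22.9%). Mcm6, a subunit of the helicase, read 10.05, 9.92, 10.39 and 10.17 in chromium, 9.09, 9.15, 8.91 and 8.87 in cadmium, and 8.79, 8.89, 8.91 and 8.60 in controls. It was 1.13 higher in chromium, Mcm7 1.10, Mcm5 0.97, Mcm2 0.90, Mcm3 0.84 and Mcm4 0.71, so all 6 subunits of the replicative helicase lay on the same side. Mcm10, which opens the helicase at the fork, was higher by 0.71 ± 0.08 (limma, adjusted p = 1.31e-07). The origin recognition subunit Orc3 went the other way, lower in chromium by 0.72 ± 0.07 (limma, adjusted p = 3.77e-08), and Orc5 was the other member that fell. The median of the 8 members outside the published set was 0.25, from 0.10 to 0.40 over the 4 replicates. It was 0.71 with the published members included.

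The 130 bases shown for 3 helicase genes are from RefSeq on the GRCr8 build, end before the annotated start, and are written along the gene's strand. They are printed because the capitals mark what these genes share, an E2F motif (TTTCCCGC, TTTGGCGC, TTTCGCGC or TTTGCCGC, on either strand, where overlapping matches form 1 run). E2F factors switch on genes of the G1/S transition. Mcm6 is at chr13:42404372-42404501 (minus strand), Mcm5 at chr19:13488590-13488719 (plus strand) and Mcm7 at chr12:22163179-22163308 (minus strand).
Mcm6: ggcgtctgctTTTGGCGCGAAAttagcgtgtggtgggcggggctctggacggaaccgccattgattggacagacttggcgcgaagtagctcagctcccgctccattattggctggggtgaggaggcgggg
Mcm5: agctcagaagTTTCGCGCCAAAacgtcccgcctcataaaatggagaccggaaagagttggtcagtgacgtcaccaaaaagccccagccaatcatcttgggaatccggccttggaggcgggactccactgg
Mcm7: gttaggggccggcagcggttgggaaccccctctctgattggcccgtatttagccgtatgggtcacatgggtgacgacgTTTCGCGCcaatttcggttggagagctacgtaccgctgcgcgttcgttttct
Within 250 bases before the start, 498 of 27457 rat promoters held 1 of these motifs (1.81%), and 280 of the 8026 among genes tested (3.49%). Published genes are included in these counts, which are a description. Of the 71 genes called higher in chromium that have a promoter in the table, 13 did (18.3%), among them Dtl, Tyms, Slbp and Zfp367, and of the 232 called higher in cadmium 4 did (1.72%). In the licensing list 9 of 16 did (56.2%), whereas in the replication fork list it was 1 of 26. The 9 include Orc3 and Orc5, which fell in chromium, and do not include Cdt1. A match describes letters in this window and is not evidence of binding.

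Genes of the moving fork followed the licensing genes. Of 15 members of the replication fork list outside the published probe sets, 12 rose in chromium relative to cadmium and 0 fell, and the 12 published members were all higher, by 0.52 to 0.97. Pcna, the sliding clamp, read 12.56, 12.33, 12.73 and 12.57 in chromium and 11.80, 11.49, 11.57 and 11.45 in cadmium, a difference of 0.97 ± 0.13. Rfc3, a subunit of the clamp loader, was higher by 0.81 ± 0.12 (limma, adjusted p = 8.12e-06) and Wdhd1, which ties polymerase alpha to the helicase, by 0.77 ± 0.07 (limma, adjusted p = 1.84e-08). In the list of G1/S cyclins and nucleotide supply, 8 of 11 members outside the published set rose and 1 fell. Slbp, which binds the ends of histone messages, was higher by 0.90 ± 0.13 (limma, adjusted p = 6.85e-06), and the published members E2f7 (1.12), Rrm1 (0.96) and Tyms (0.90) were higher as well. Over the members outside the published set, the medians of the licensing, fork and G1/S lists against controls were 0.49, 0.53 and 0.53 in chromium and 0.20, 0.06 and 0.01 in cadmium.

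Mitotic genes were higher in chromium than in cadmium almost throughout. None of the 27 measured members of the list of mitosis and cytokinesis was among the published probe sets, and 25 of 27 rose in chromium relative to cadmium while 0 fell (background 19.1% and 22.9%). The median difference was 0.56, from 0.27 to 0.71 over the 4 replicates. Against controls, 18 of 27 rose and 0 fell in chromium (background 22.1% and 17.6%), while 0 rose and 7 fell in cadmium (background 20.6% and 11.7%). The median lay 0.41 above controls in chromium and 0.18 below them in cadmium. Kif20a, a kinesin of the central spindle, read 8.71, 8.76, 8.66 and 8.66 in chromium, 8.17, 7.69, 7.52 and 7.48 in cadmium, and 8.18, 8.12, 7.90 and 7.90 in controls. It was higher in chromium by 0.98 ± 0.16 (limma, adjusted p = 3.23e-05). Nuf2, a kinetochore subunit that binds microtubules, was higher by 0.91 ± 0.09 (limma, adjusted p = 2.33e-08), and Ccna2, cyclin A of S and G2 phase, by 0.83 ± 0.14 (limma, adjusted p = 6.09e-05). Cdc20, which activates the anaphase-promoting complex, was higher by 0.69 ± 0.12 (limma, adjusted p = 4.4e-05). Aurka (0.26 ± 0.12) and Cdc25b (0.13 ± 0.15) did not pass. Further mitotic genes outside all lists, named after their values were seen, were Sgo1 (1.08), which protects centromere cohesion, the spindle-pole protein Aspm (1.04), the kinesins Kif20b (1.03) and Kifc1 (0.96), and Racgap1 (0.97) of the central spindle.

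DNA repair did not move as a block. In homologous recombination and the Fanconi anemia pathway, which deals with crosslinks, 7 of 16 members outside the published set rose in chromium relative to cadmium and 3 fell. Blm, a helicase that dissolves recombination intermediates, was higher by 0.69 ± 0.12 (limma, adjusted p = 3.88e-05) and Brca1 by 0.64 ± 0.10 (limma, adjusted p = 3.11e-05). The published members Ube2t (1.07), which ubiquitinates the Fanconi complex, Rad51ap1 (1.06), the nuclease Exo1 (1.00) and Fancb (0.96) were also higher. Mus81, a nuclease of stalled forks, was lower in chromium by 0.59 ± 0.08 (limma, adjusted p = 1.78e-06), and here cadmium stood 0.65 above controls. In excision and mismatch repair 8 of 26 rose and 8 fell. Ung, the uracil glycosylase, was higher by 0.56 ± 0.07 (limma, adjusted p = 3.82e-07), and Mpg, the glycosylase for alkylated purines, was lower by 0.84 ± 0.10 (limma, adjusted p = 3.27e-07).

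Of the p53 targets outside the published set, 2 of 13 rose in chromium relative to cadmium and 3 fell, close to the background of 19.1% and 22.9%. Against controls 8 of the 13 rose and 1 fell in each metal. Cdkn1a, the cyclin-dependent kinase inhibitor p21, differed by 0.10 ± 0.17 and Mdm2 by 0.06 ± 0.10, and neither passed the test. Both metals put Cdkn1a above controls, by 0.53 in chromium and 0.43 in cadmium. Gadd45a, which responds to DNA damage and also to ATF4, stood apart. It read 7.83, 7.69, 7.56 and 7.21 in chromium, 10.44, 9.79, 10.07 and 9.88 in cadmium, and 7.88, 7.68, 7.24 and 7.55 in controls, a difference of -2.47 ± 0.15 that lay in the cadmium arrays alone.

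**Figure D2:**
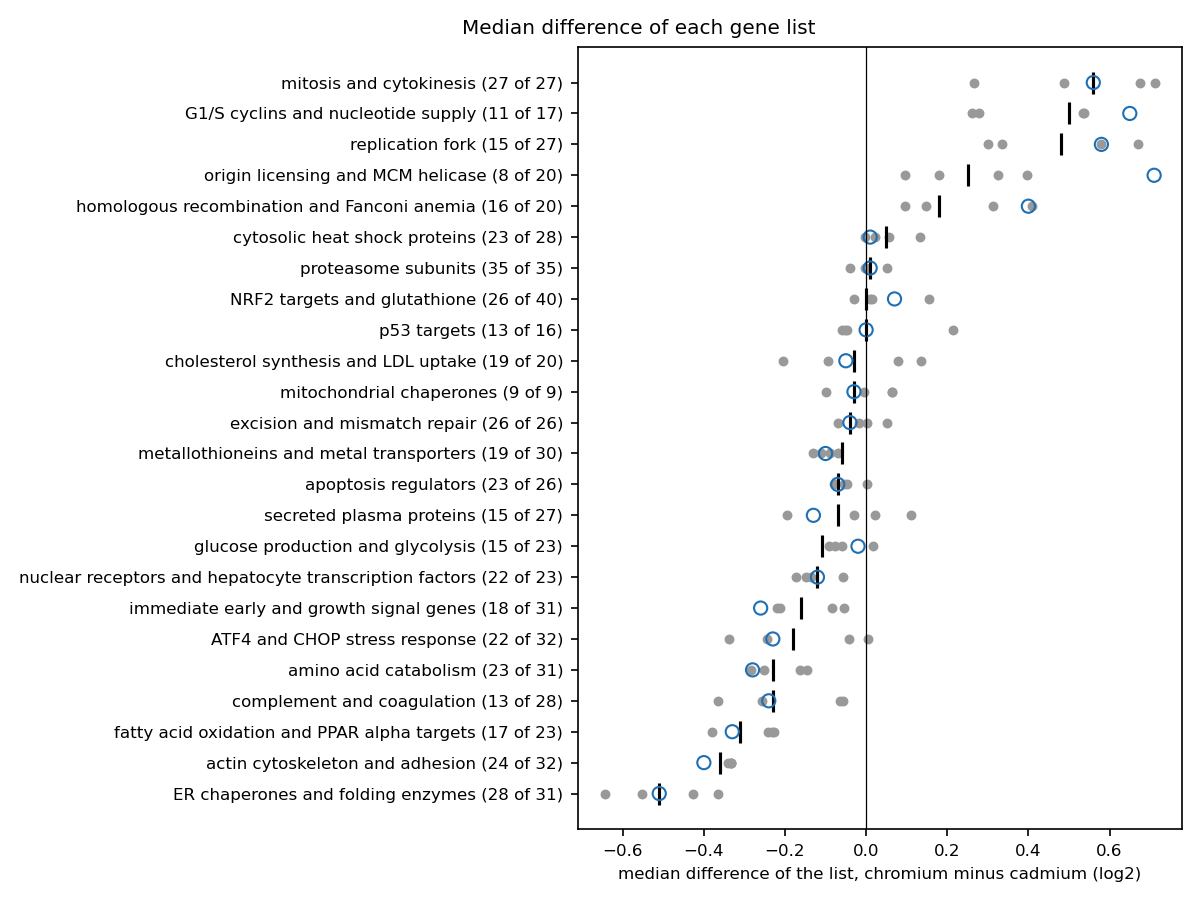
Median difference (log2, x axis) between chromium 10 µM and cadmium 1.2 µM of 24 gene lists; black bars are medians of the fitted differences over members outside the published probe sets (in brackets, of all measured), grey points the same in each of the 4 replicates, and open circles the medians with published members included. Mitosis lies highest (0.56) and the ER chaperones lowest (-0.51), and the licensing list moves from 0.25 to 0.71 when published members are included.

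On the cadmium side the largest difference was in Hspa1a, an inducible cytosolic chaperone of the HSP70 family. It read 6.12, 5.98, 6.08 and 5.95 in chromium, 11.82, 11.52, 9.97 and 9.06 in cadmium, and 5.85, 5.88, 5.75 and 5.77 in controls. The difference was -4.56 ± 0.33 on the log2 scale, measured against chromium and control values near the median of all probe sets (5.96). Although the cadmium arrays spread widely (SD 1.30, against 0.08 in chromium), which the pooled SE understates, all 4 were far above the other groups. Cryab, a small heat shock protein that holds unfolded clients, differed by -1.84 and Bag3, a cofactor of HSP70, by -1.05, again with chromium near controls. Hspb8 and Dnajb1, also published members of the heat shock list, differed only by -0.40 and -0.39, and their arrays overlapped between the metals. In these genes chromium itself stood above controls, by 0.76 and 0.52. The family as a whole did not follow, since 8 of 23 members of the heat shock list outside the published set rose in chromium relative to cadmium and 5 fell. Against controls 15 of the 23 rose and 0 fell in chromium, with a median of 0.30. In cadmium 14 rose and 0 fell, with a median of 0.27. Hsph1, an exchange factor of HSP70, was lower by 0.47 ± 0.14 (limma, adjusted p = 0.00683), with 12.32, 11.94, 11.32 and 11.14 in cadmium. Without replicate 1 the Hsph1 difference was -0.27 (limma, adjusted p = 0.0966) and without replicate 2 it was -0.41 (limma, adjusted p = 0.064), so it no longer passed. Hsf2, a heat shock factor, was higher in chromium by 0.45 ± 0.07 (limma, adjusted p = 1.34e-05).

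The metallothioneins Mt2A and Mt1 and the zinc exporters Slc30a1 and Slc30a2 were also higher in cadmium. Mt2A, a metallothionein, read 8.77, 8.73, 8.94 and 8.48 in chromium, 12.70, 12.69, 12.20 and 12.18 in cadmium, and 7.12, 7.13, 7.29 and 7.38 in controls. The metals differed by -3.71 ± 0.25, or 13.1-fold, and both stood above the control mean of 7.23, chromium with a mean of 8.73 and cadmium with one of 12.44. Slc30a1, which exports zinc from the cell, differed by -2.05 ± 0.21, and Slc30a2, which fills vesicles with zinc, by -1.82 ± 0.12. Mt1 differed by -1.89 ± 0.21, with 1 cadmium array at 8.03 and the other 3 at 6.29 to 6.38. Together with the low Slc39a10, cadmium thus had more of 2 exporters and less of 1 importer of zinc than chromium had. Of the 11 published members of the list of metallothioneins and metal transporters, 8 were lower in chromium and 3 higher, Slc39a10 among the latter. Of the 19 members outside the published set, 5 fell and 1 rose in chromium relative to cadmium, and 13 did not pass. Their median difference was -0.06, and the share that fell was near the background of 22.9%. Slc39a11, another zinc carrier, was lower by 0.79 ± 0.10 (limma, adjusted p = 1.41e-06), and there chromium was 0.84 below controls while cadmium was at -0.05.

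Metal response elements bind MTF1, the factor that reads free zinc. The promoter of Mt2A, 130 bases at chr19:10838744-10838873 on the minus strand of GRCr8, is shown because its capitals mark 2 copies of the core TGCGCNC, which was searched on both strands. The first copy is on the opposite strand and so reads as its reverse complement.
Mt2A: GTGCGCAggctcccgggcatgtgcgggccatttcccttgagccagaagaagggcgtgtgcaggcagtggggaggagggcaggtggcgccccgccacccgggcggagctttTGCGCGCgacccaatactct
This short core is common. It was in 12.7% of all rat promoters, in 23.7% of those of genes tested, in 29.6% of those called higher in chromium and in 16.8% of those called higher in cadmium. In the list of metallothioneins and metal transporters 12 of 25 promoters held it (48%).

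S100 proteins and annexins, which bind calcium, were among the larger differences toward cadmium. They were singled out after their values were seen and are members of the lists of metal handling and of actin and adhesion. S100a6 read 5.89, 5.97, 5.99 and 6.02 in chromium, 9.09, 9.14, 9.25 and 9.15 in cadmium, and 5.47, 5.48, 5.49 and 5.74 in controls, a difference of -3.19 ± 0.10. S100g (-2.20), which buffers calcium in absorptive cells, S100a11 (-2.06) and the annexins Anxa3 (-2.25) and Anxa2 (-1.35) lay on the same side. Annexins bind membrane phospholipid when calcium rises, and several S100 proteins are their partners. Clu, the secreted chaperone clusterin, differed by -2.61 ± 0.09, with all chromium arrays below and all cadmium arrays above their own controls. In the list of actin cytoskeleton and adhesion genes, 15 of 24 members outside the published set fell in chromium relative to cadmium and 1 rose, and the 8 published members were all lower, by 0.21 to 2.25 on the log2 scale. Anxa5 was lower by 0.80 ± 0.09 (limma, adjusted p = 3.58e-07) and Vcl, vinculin of focal adhesions, by 0.54 ± 0.06 (limma, adjusted p = 1.32e-07). Over these 24 members the median difference was -0.36, with cadmium at 0.23 and chromium at -0.14 against controls.

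Slc2a2, the glucose carrier GLUT2 of hepatocytes and beta cells, lay on opposite sides of controls in the 2 metals. It read 4.68, 5.03, 5.02 and 5.33 in chromium, 8.34, 8.71, 8.45 and 8.58 in cadmium, and 6.45, 7.25, 7.51 and 7.61 in controls. The metals differed by -3.50 ± 0.16 on the log2 scale, and all chromium values were below the median of all probe sets (5.96), where levels are dim. Neither metal's arrays overlapped the controls. At the lower concentrations it had 7.07 ± 0.59 and 6.44 ± 0.63 (SD, n = 4) in 0.275 and 1 µM chromium and 7.17 ± 0.54 and 7.92 ± 0.54 in 0.2 and 0.55 µM cadmium, against 7.21 ± 0.52 in controls. Other genes of glucose production and glycolysis did not follow it, with 2 of 15 outside the published set rising and 4 falling in chromium relative to cadmium.

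ER chaperones divided the metals as completely as mitosis did, in the opposite direction. Of 28 measured members outside the published probe sets, 27 fell in chromium relative to cadmium and 0 rose (background 22.9% and 19.1%). The median difference of the 28 was -0.51, from -0.64 to -0.37 over the 4 replicates, with chromium at -0.29 and cadmium at 0.26 against controls. In chromium 0 rose above controls and 15 fell below (background 22.1% and 17.6%), and in cadmium 15 rose and 2 fell (background 20.6% and 11.7%). Hspa5, the ER chaperone BiP, read 11.55, 11.66, 11.33 and 11.45 in chromium, 12.64, 12.40, 12.74 and 12.60 in cadmium, and 12.18, 12.16, 12.05 and 12.09 in controls. It was lower in chromium by 1.10 ± 0.10 (limma, adjusted p = 8.52e-09), and the controls lay between the metals with no overlap. Hyou1, a large ER chaperone, was lower by 0.90 ± 0.15 (limma, adjusted p = 2.7e-05) and Hsp90b1, the HSP90 of the ER, by 0.73 ± 0.06 (limma, adjusted p = 4.17e-09). Edem2, which marks misfolded glycoproteins for disposal, was lower by 0.84 ± 0.10 (limma, adjusted p = 4.6e-07), and Calr, calreticulin, by 0.55 ± 0.06 (limma, adjusted p = 1.6e-07). The split between the metals was not the same in each member. Sdf2l1 was at -0.01 in chromium and 0.75 in cadmium, whereas Edem2 was at -0.79 in chromium and 0.05 in cadmium. Herpud1, of ER-associated degradation, was the member that did not pass (0.26 ± 0.12). Of the 3 published members, Dnajc3 (-1.01) was lower and Ero1a, an oxidase also induced by hypoxia, was higher (0.55).

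The ER stress element, CCAAT and CCACG with 9 bases between them (searched on both strands), is read by ATF6 with the CCAAT-binding factor. It was rare, in 21 of 27457 promoters (0.0765%) and in 15 of 8026 for genes tested (0.187%), but was in 8 of 25 in the ER list (32%), namely Calr, Canx, Creld2, Dnajc3, Ero1b, Hsp90b1, Hspa5 and Xbp1. The 2 promoters shown belong to the chaperones with the values above, Hspa5 at chr3:38452886-38453015 (plus strand) and Hsp90b1 at chr7:23012294-23012423 (minus strand), again 130 bases of GRCr8 with the element in capitals.
Hspa5: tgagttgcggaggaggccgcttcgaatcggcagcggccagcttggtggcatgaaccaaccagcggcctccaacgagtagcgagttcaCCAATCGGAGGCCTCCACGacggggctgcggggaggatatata
Hsp90b1: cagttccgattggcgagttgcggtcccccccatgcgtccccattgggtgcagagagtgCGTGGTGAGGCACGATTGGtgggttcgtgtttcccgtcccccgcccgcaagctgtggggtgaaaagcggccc
Hsp90b1 carries the element on the opposite strand. The element was in 0 of the 71 promoters called higher in chromium and in 3 of the 232 called higher in cadmium (Dnajc3, Hspa5 and Zfand2a). Among mitotic genes it was in 1, Birc5, which was higher in chromium by 0.53 ± 0.08 (limma, adjusted p = 2.08e-05).

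**Figure D3:**
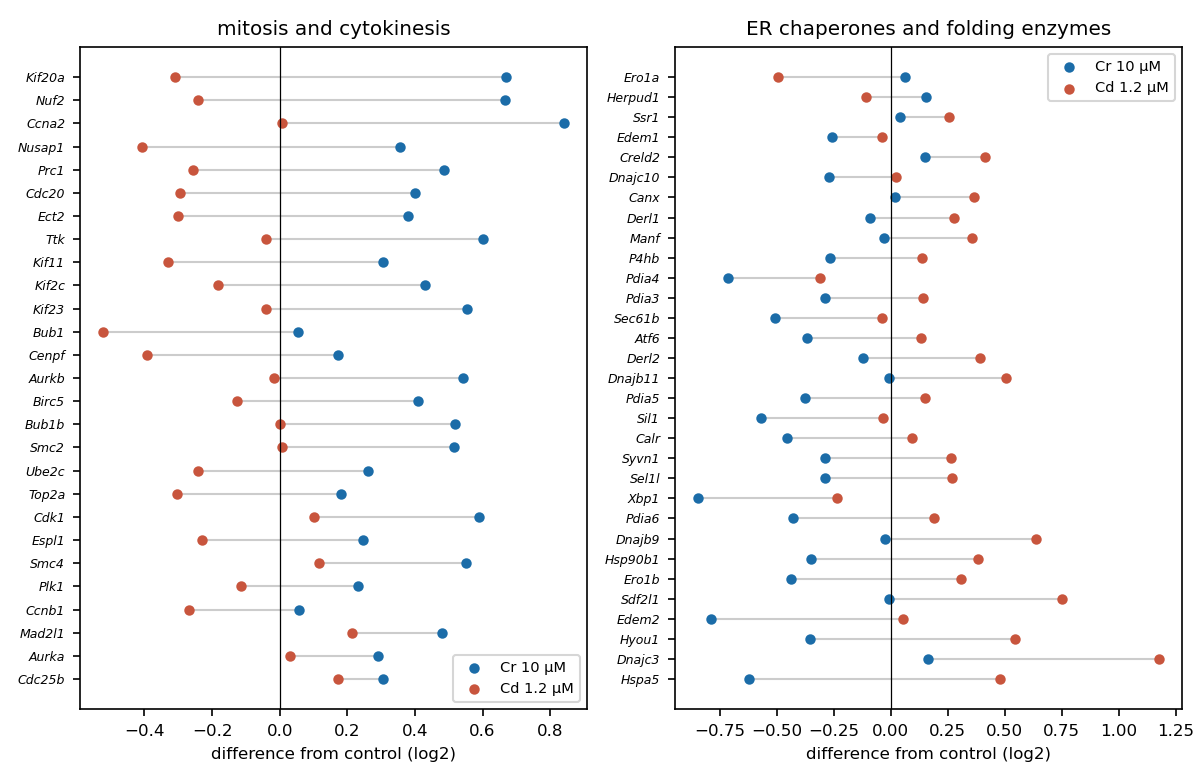
Difference from control (log2, x axis) in chromium 10 µM (blue) and cadmium 1.2 µM (red) for each member (y axis) of the lists of mitosis and cytokinesis (left, 27 genes) and ER chaperones and folding enzymes (right, 31 genes), ordered by the difference between metals. Every mitotic gene lies further right in chromium, and every ER gene lies further right in cadmium except Herpud1 and Ero1a.

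In the arm of the stress response that works through ATF4 and CHOP, the largest differences lay on the cadmium side. Of 22 members outside the published set, 7 fell in chromium relative to cadmium and 1 rose. The share that fell was near the 29.2% of all genes with 1 probe set each. Their median difference was -0.18, from -0.34 to 0.00 over the 4 replicates. Of the 10 published members, which are only described, 9 were lower. Atf3, a stress-induced repressor, read 7.16, 6.79, 6.49 and 6.27 in chromium, 9.24, 8.79, 8.78 and 8.54 in cadmium, and 5.80, 5.71, 5.18 and 5.67 in controls. It differed by -2.16 ± 0.14 and stood above controls in both metals, by 1.08 and 3.25. Ddit3 (CHOP, -1.41) and Ppp1r15a (GADD34, -1.10) had the same order. Trib3, a pseudokinase induced by CHOP, was lower in chromium by 1.00 ± 0.19 (limma, adjusted p = 0.000194), and Asns, asparagine synthetase, by 0.60 ± 0.14 (limma, adjusted p = 0.00113).

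Targets of NRF2 and glutathione genes, which answer to oxidants, did not separate the metals as a group, with 9 of 26 outside the published set rising and 7 falling. Hmox1, heme oxygenase, read 9.23, 9.02, 9.92 and 9.66 in chromium and 11.02, 10.97, 10.30 and 9.91 in cadmium, and the metals overlapped. It differed by -1.09 ± 0.22, with both above controls, by 1.06 and 2.15. Other members of this list had chromium on top, among the published ones Osgin1 (0.67), Akr1b8 (0.67), Nqo1 (0.46) and Gclm (0.49). Nfe2l2, the transcript of NRF2 itself, was higher in chromium by 0.52 ± 0.05 (limma, adjusted p = 4.35e-08). Gss, glutathione synthetase, was lower by 0.67 ± 0.08 (limma, adjusted p = 2.91e-07).

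**Figure D4:**
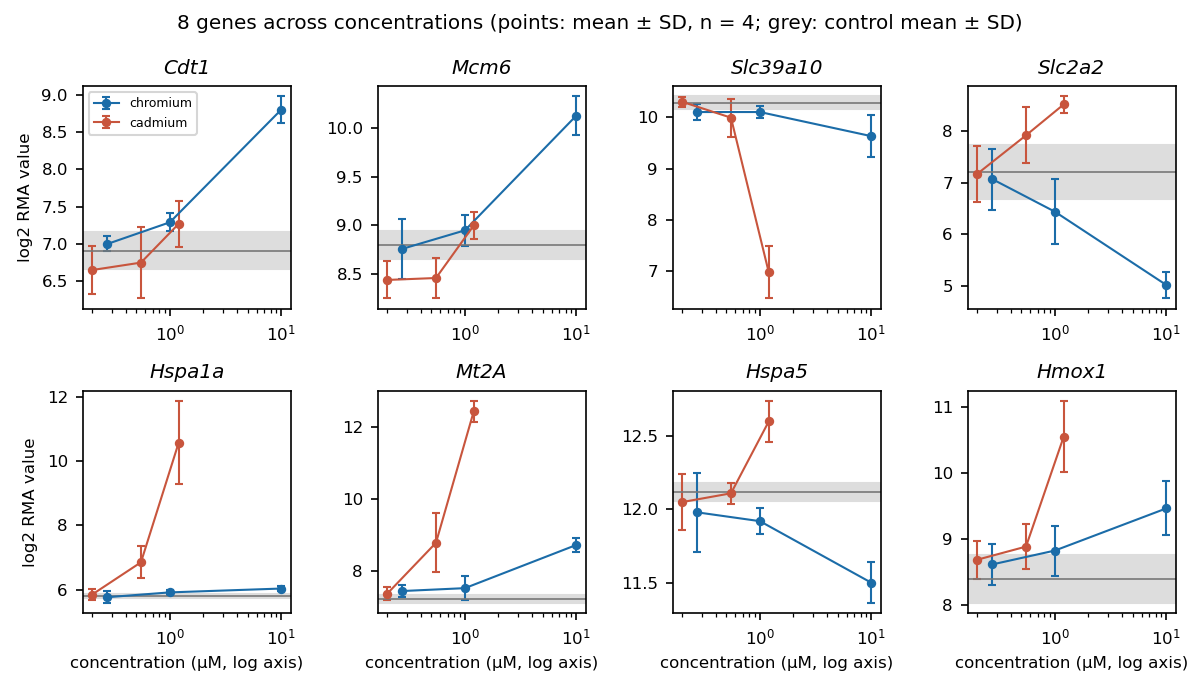
Log2 RMA values (y axes, mean ± SD, n = 4) of 8 genes at the 3 concentrations (x axes, µM, log scale) of chromium (blue) and cadmium (red), with the control mean ± SD in grey. Hspa1a goes from 6.85 to 10.59 in cadmium and Cdt1 from 7.29 to 8.80 in chromium, and Slc2a2 departs from controls in opposite directions.

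The genes with large differences did not all change at the same concentration. Cdt1 was at 7.29 ± 0.12 (SD, n = 4) in 1 µM chromium before 8.80 ± 0.18 in 10 µM. Slc39a10 was at 10.30 ± 0.10 and 9.99 ± 0.37 in 0.2 and 0.55 µM cadmium and then at 6.98 ± 0.51 in 1.2 µM. Mt2A already stood at 8.79 ± 0.82 in 0.55 µM cadmium, close to its 8.73 ± 0.19 in 10 µM chromium. Ly6i, a membrane-anchored surface protein, had 5.94 ± 0.44 in controls and was at 6.89 ± 0.50, 7.55 ± 0.25 and 7.74 ± 0.27 over the 3 cadmium concentrations, most of the difference from controls being reached below the highest one. The plot of genes by concentration shows such steps. Mitotic genes, which are not in that plot, had means already below controls in 0.2 µM cadmium. Over the 3 cadmium concentrations Kif20a had 7.55 ± 0.33, 7.75 ± 0.45 and 7.71 ± 0.32, against 8.02 ± 0.15 in controls. Nuf2 had 7.71 ± 0.33, 7.78 ± 0.21 and 7.80 ± 0.25, against 8.04 ± 0.15. Ccna2 had 7.56 ± 0.36 and 7.69 ± 0.29, then 8.25 ± 0.28, against 8.25 ± 0.20. The mitotic list was not tested at the lower concentrations.

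Several groups of liver genes were lower in chromium than in cadmium. Over members outside the published set, the median of amino acid catabolism lay 0.42 below controls in chromium and 0.11 below in cadmium. In amino acid catabolism 11 of 23 members outside the published set fell in chromium relative to cadmium and 1 rose, and in fatty acid oxidation 9 of 17 fell and 0 rose. Mat1a, the liver enzyme that makes S-adenosylmethionine, was lower by 0.97 ± 0.10 (limma, adjusted p = 6.13e-08) and Acot2, a mitochondrial thioesterase, by 0.78 ± 0.09 (limma, adjusted p = 2.18e-07). Complement and coagulation factors had 8 of 13 falling and 1 rising outside the published set, while of the 15 published ones 7 were higher and 8 lower, and the member that rose was Masp2, a protease of the lectin pathway (0.72 ± 0.06; limma, adjusted p = 3.6e-09). Other groups were nearer the background. Of nuclear receptors and hepatocyte factors 7 of 22 fell, 1 rose and 14 did not pass, with a median of -0.12. With 1 probe set per gene, 29.2% of all genes were lower in chromium. Those that fell included Nr1h4, the bile acid receptor FXR, by 0.58 ± 0.11 (limma, adjusted p = 0.000177). Nr1h3, the oxysterol receptor LXR alpha, fell by 0.56 ± 0.08 (limma, adjusted p = 2.99e-06). Secreted plasma proteins (2 up, 3 down of 15) and cholesterol synthesis (3 up, 5 down of 19) were also near the background. Apoa1, the main protein of HDL, differed by -1.07 ± 0.22, with cadmium 0.88 above and chromium 0.19 below controls.

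Of immediate early and growth signal genes outside the published set, 7 of 18 fell in chromium relative to cadmium and 3 rose, and of the 13 published ones 10 were lower. Egr1, an early growth response factor, read 9.09, 8.41, 8.73 and 8.68 in chromium and 10.70, 10.38, 9.91 and 9.40 in cadmium, lower in chromium by 1.37 ± 0.22 (limma, adjusted p = 2.76e-05). The chemokine Cxcl1 (-1.71), the matrix protein Ccn2 (-1.29) and the phosphatase Dusp1 (-1.25) were lower as well. Proteasome subunits (3 rising and 4 falling of 35) and mitochondrial chaperones (0 and 1 of 9) showed little difference, and both metals had the proteasome median 0.26 above controls. Among apoptosis regulators outside the published set 3 of 23 rose, 5 fell and 15 did not pass, no more than the background of 19.1% and 22.9%. Casp12, a caspase at the ER membrane, was lower in chromium by 0.72 ± 0.13 (limma, adjusted p = 0.000104). It no longer passed without the replicate block (limma, adjusted p = 0.112). Of the 3 published members, Bcl2l11 was higher in chromium by 0.76, while Casp4, an inflammatory caspase, differed by -1.77 and Tnfrsf12a by -0.91.

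The span of a gene, from its RefSeq start to its end on GRCr8, went with the direction of the difference. Genes were ranked by span and divided into 10 classes of nearly equal size. In the longest class outside the published set (860 genes of 109 to 1514 kb), 45% were lower in chromium than in cadmium at an adjusted p under 0.05 and 6.05% were higher. In the shortest class (864 genes, up to 4.5 kb) the shares were 30% and 14.9%, and in class 5 (17 to 23.1 kb) 22.3% and 22.1%. Against controls the median of the longest class was -0.15 in chromium and 0.01 in cadmium. With the published genes included, that median was -0.14 to -0.25 over the 4 replicates of chromium and -0.02 to 0.03 over those of cadmium. The difference in long genes therefore lay on the chromium side. An example is Ank3, an adaptor of the membrane skeleton (623 kb), lower by 0.94 ± 0.12 (limma, adjusted p = 9.24e-07). Published examples are Fhit (-1.05), which spans a fragile site, Dpyd (-1.32), of pyrimidine breakdown, and Vps13b (-1.42). Against controls Fhit, Dpyd and Vps13b were at -1.18, -1.89 and -1.56 in chromium and at -0.13, -0.58 and -0.13 in cadmium. Dpyd was thus lower in cadmium too, though by less. Among genes called higher in cadmium, published ones included and as a description, the median span was 35.2 kb for the 129 where chromium lay further from controls and 11.5 kb for the 135 where cadmium did. The probes of these arrays lie near the 3' end of transcripts, and the part of span itself was not tested apart from other features of long genes.

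**Figure D5:**
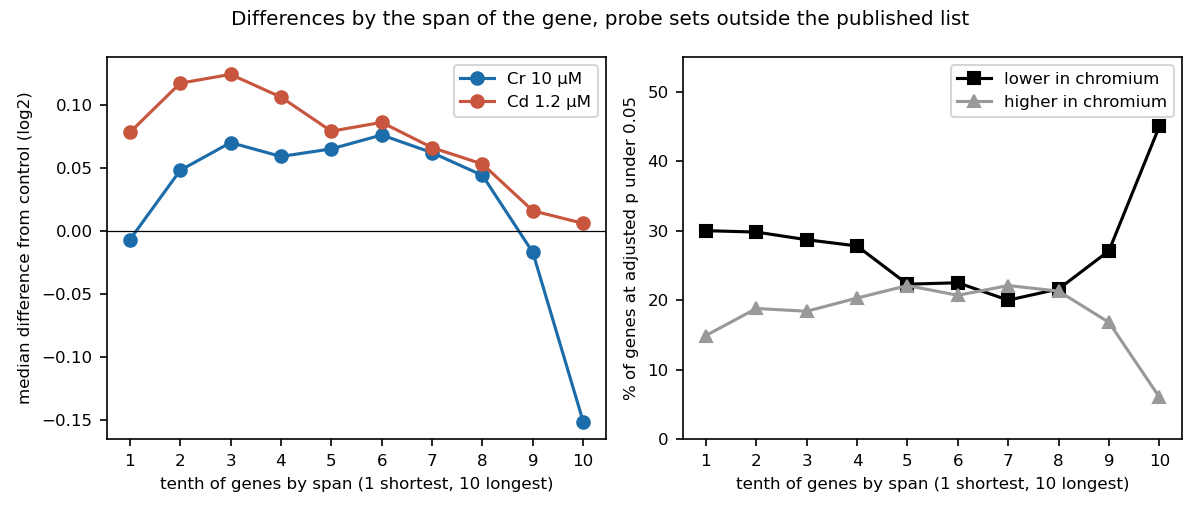
Left, median difference from control (log2, y axis) in chromium 10 µM (blue) and cadmium 1.2 µM (red) for 10 classes of genes ordered by span (x axis), outside the published probe sets; right, percentage of genes lower (black squares) or higher (grey triangles) in chromium than in cadmium at an adjusted p under 0.05. The longest class has a chromium median of -0.15 against 0.01 in cadmium, and 45% of its genes are lower in chromium.

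Further differences outside the published probe sets, named after their values were seen, had chromium and cadmium on opposite sides of the controls in each of the 7 genes given here. Manba, a lysosomal mannosidase, read 7.28, 7.40, 6.96 and 7.16 in chromium, 8.92, 8.69, 8.59 and 8.58 in cadmium, with a control mean of 7.92, and was lower in chromium by 1.49 ± 0.07 (limma, adjusted p = 4.7e-13). Pycard, the adaptor of inflammasomes, was lower by 1.32 ± 0.09 (limma, adjusted p = 7.11e-11), Pld1, which makes phosphatidic acid, by 1.26 ± 0.08 (limma, adjusted p = 6.16e-11), and Aqp11, a water channel of the ER, by 1.32 ± 0.10 (limma, adjusted p = 1.01e-09). Toward chromium, Zbtb1, a repressor linked to the DNA damage response, was higher by 1.09 ± 0.10 (limma, adjusted p = 1.43e-08), Tsr2, which chaperones a ribosomal protein, by 1.01 ± 0.08 (limma, adjusted p = 8.87e-10) and the noncoding RNA Dancr by 0.96 ± 0.07 (limma, adjusted p = 2.19e-10). Other probe sets of 3 of these genes differed less. A second one of Zbtb1 was at 0.23 (limma, adjusted p = 0.108) and one of Tsr2 at 0.29 (limma, adjusted p = 0.00436), and the 4 of Pld1 ran from -1.26 to 0.13.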

How the data were processed

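Total RNA was hybridised to 44 Affymetrix rat arrays. The deposited values are log2 expression that the authors made with RMA in Partek. They were used as deposited, together with the platform's probe annotation, in which 20826 of 31042 probe sets name 1 gene, 436 several and 9780 none. The comparison, its members and the gene lists were chosen with earlier results of these data known. The depth of an array has no count behind it, and the precision is set by the number of arrays.

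The 57 array controls were left out. Probe sets above the median of all values (5.96) on at least 4 of 44 arrays were kept, which left 16972. limma 3.58.1 in R 4.3.3 was fitted to 28 units, namely 4 controls (2 arrays of a replicate averaged), 12 chromium and 12 cadmium arrays, with condition and replicate as terms and moderated variances. P-values were adjusted by Benjamini-Hochberg over all 16972. A call needed a false discovery rate of at most 0.001 and 1.8-fold; a gene passed at an adjusted p under 0.05. Fits were tested on simulated data.

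The labels number the replicates, and no label ties equal numbers to a shared day. Deviations from the group means correlated between the metals at 0.510, 0.147, 0.300 and 0.520 for the same number, each above 0.1, so replicate stayed in the fit. The pairing was not clean. Chromium replicate 2 correlated at 0.315 with a cadmium array of another number. Cadmium replicate 3 correlated at 0.442 with a control of another number and at 0.422 with its own. The study's own model had a batch term for experimental and processing dates, for which replicate number stands in here. Named genes were the 12 largest differences in each direction (the probe set with the largest difference), up to 4 members per list (the brightest probe set), and genes of the study's own lists; other genes are said to be chosen after their values were seen. The long genes were named for their span with their values known, and members given as not passing were named to account for their lists.

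Alternatives were the titles as deposited, other sets of arrays, other filters, centring, variance models, no replicate block and leaving out each replicate. Promoters and spans came from RefSeq tables on GRCr8; letters were searched in the 250 bases before each start.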

Additional observations from a re-analysis of the deposited data

Results flagged for a closer look

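Within groups of 4 arrays, 1 array stood apart from the rest in 2 of 48 groups looked at, where chance alone flags about 1 in 20. Ddias in cadmium read 6.98, 6.60, 6.53 and 6.59, and the gap of replicate 1 to the nearest array was 0.836 of the range. S100a11 in cadmium read 11.76, 11.39, 11.42 and 11.40, with a gap of 0.913 of the range for replicate 1.

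Among the 24 genes with the largest differences, 12 in each direction, there were 5 in which all 4 chromium arrays lay on one side of their own replicate's control and all 4 cadmium arrays on the other. The difference between the metals was 1.15 for Mkks, where chromium lay 0.56 to 0.62 above and cadmium at -0.64 to -0.39, by the probe set named in the report. It was -3.50 for Slc2a2, with chromium at -2.49 to -1.77 and cadmium at 0.94 to 1.89. It was -2.61 for Clu, with chromium at -0.53 to -0.24 and cadmium at 2.08 to 2.40. Ifi27l2b differed by -2.30, with chromium at -2.12 to -1.14 and cadmium at 0.62 to 1.16. Ly6i differed by -2.25, with chromium at -0.64 to -0.34 and cadmium at 1.55 to 2.06. For all but Mkks the difference was not tested, since these genes were among the probe sets that chose the order of the arrays.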

How the results depend on the processing

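With the titles as deposited, 0 probe sets were called in either direction between the metals, 0 passed an adjusted p under 0.05 in either direction, and 0 were called against controls in either metal. Under those titles 20 of 143 named differences changed sign, to 0.15 for Ly6i, 0.43 for Atf3, 0.46 for S100a11, 0.33 for Ddit3, 0.14 for Ppp1r15a, 0.40 for Trib3, 0.073 for Dnajc3, 0.013 for Anxa2, 0.35 for Casp4, 0.25 for Tnfrsf12a, 0.26 for Casp12, -0.027 for Msmo1, 0.049 for Pfkfb3, 0.16 for Cxcl1, 0.033 for Lonp1, 0.50 for Hspb8, -0.39 for Adm, -0.17 for Ldha, 0.38 for Jun and 0.22 for Cyp3a18. The order of the arrays therefore decides every result here, and it rests on the published means, not on the labels. Under the rule's order, with published probe sets counted and so as a description, the calls toward chromium (150) ran from 108 to 185 and those toward cadmium (376) from 335 to 421 when 1 replicate was left out. Without the replicate block they were 136 and 325, and 9 of 143 named differences no longer passed, among them Casp12 (adjusted p = 0.112 by limma) and Lonp1 (-0.53, adjusted p = 0.104 by limma). Of the 227 calls outside the published probe sets, 196 were shared without the block and 165 to 210 when 1 replicate was left out. With the mean of all probe sets of a gene, 3 of 28 list medians moved beyond the spread between replicates, to -0.27 for metallothioneins and metal transporters, -0.32 for immediate early genes and -0.34 for actin genes. The single concentration per metal, the 4 arrays per metal and the level of dim probe sets limit what could be detected.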
